A study of Saccharomyces cerevisiae with 2 samples.

Results

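The outermost 10 kb of the chromosomes of budding yeast, Saccharomyces cerevisiae, were examined for DNA breaks after replication stress, in cells that recovered with or without a chelator of iron. The members were array probes of chromosomes II to XVI that lay less than 10 kb from coordinate 0 (left ends) or less than 10 kb from the last probe of their chromosome (right ends). This rule uses position only, and it took 550 of 41480 probes (1.33%), 171 at left ends and 379 at right ends. Of the 30 ends, 27 held a probe, 25 held at least 3 probes and 20 held at least 10. The left ends of IX, X and XVI held none, since their first probes lay at 19.6, 19.6 and 13.2 kb. The left ends of IV and XII held 2 and 1 probes and enter only the counts of probes. Chromosome I was not among the members.

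The name of these windows holds only in part at the right ends. RefSeq's gene table for the reference strain lists 24 genes further out than the last probe, at 11 of the 15 right ends. Of these genes 13 are outside the Y′ family, and 5 of those lie beyond the last probe of X. A window at such an end therefore lies further inward than at the left ends.

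Both samples came from mec1 cells of strain WFA73, and Mec1 is the checkpoint kinase that stabilises stalled replication forks. For R-1h+BPS, cells arrested in G1 by alpha factor entered S phase in 200 mM hydroxyurea, which depletes deoxynucleotides, for 1 h, and then recovered for 1 h with the drug removed and 0.8 micromolar BPS, the iron chelator, in the medium. R-1h-BPS was treated in the same way but without BPS, and G1 cells of the same strain were the control on each array. The labels do not give the strain's wider background, so its chromosome ends may carry other elements than the reference has. The question was whether BPS altered where breaks lay.

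Each group had 1 array, so no difference below has a replicate check, no p-value was computed, and a standard error (SE) covers only the scatter of probes within an array. A level is the log2 of the deposited ratio after each array was set to a genome-wide median of 0, and a difference is the level in R-1h+BPS minus that in R-1h-BPS. The ratio was taken as recovery over G1, a likely direction, because its columns carry the names of the recovery samples. The dyes, Cy5 for G1 and Cy3 for recovery, leave the opposite direction possible, and every sign below would then turn. Neighbouring probes of the outermost 10 kb differed with a noise SD of 0.37 in R-1h+BPS and 0.25 in R-1h-BPS, against 0.41 and 0.35 in the rest of chromosomes II to XVI. For the difference this noise SD was 0.32 at the ends, against an SD of 0.61 over all 550 probes there, so neighbours resembled each other. An SE takes probes as independent and is therefore likely too small. Probes were as closely spaced as elsewhere where they existed, with medians of 260 and 257 bp between neighbours, but gaps left 1.83 probes per kb at the ends against 3.52 in the interior.

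A budding yeast chromosome ends in short telomeric repeats. Next to them every end carries an X element, and some ends also carry a Y′ element, whose reading frame encodes a helicase-like protein. Further inward lie members of gene families such as COS, PAU and MAL, many with close relatives at other ends, in chromatin that is often silenced and that tends to replicate late in S phase. In the Break-chip assay, DNA ends are labelled with a dye while the chromosomes lie in agarose, so that the label on the array marks where DNA was broken. Whether the natural ends of the chromosomes also took up label, in recovery or in G1 DNA, was not tested. Signal from near-identical copies cannot be told apart on the array.

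The chromosome ends had less signal than the rest of the genome on both arrays, by a small margin with BPS and a wide one without it. The 550 probes had a median level of −0.07 in R-1h+BPS and −0.55 in R-1h-BPS, against 0.002 and 0.01 over the other 40930 probes. As deposited, the median ratios at the ends were 1.17 in R-1h+BPS and 0.826 in R-1h-BPS. Above the genome median lay 241 probes (43.8%) in R-1h+BPS and 80 (14.5%) in R-1h-BPS. None of the 171 left-end probes reached it in R-1h-BPS, where the highest stood at −0.09, while 57 did in R-1h+BPS. Of the 80 right-end probes above it in R-1h-BPS, 64 lay at 3 ends, the right ends of II, X and XVI. The values at the ends also differed in spread: the SD was 0.83 in R-1h+BPS and 0.48 in R-1h-BPS, whereas the rest of the genome had 0.86 and 0.72. A level over 1 was found at 32 probes (5.82%) in R-1h+BPS and at 1 (0.182%) in R-1h-BPS, against 13.9% and 9.48% of all probes. A level under −1 was found at 84 (15.3%) and 72 (13.1%), against 11.4% and 7.72% of all probes. Were the ratio G1 over recovery, these last shares would be those of high break signal.

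Most probes at the ends were higher with BPS. The median difference was 0.42, with quartiles of −0.01 and 0.77, against −0.03 over the rest of the series. Positive differences were found at 408 of the 550 probes (74.2%), where 47.8% of all probes were positive. A difference over 1, that is more than a doubling of the ratio, was found at 60 probes (10.9%), against 4.22% of all probes. These 60 were spread over 15 ends, with 11 at the right end of IX and 8 at the right end of II. A difference under −1 was found at 15 probes (2.73%), close to the 2.17% of all probes, on 11 ends. With the smaller size of 0.5, 241 probes (43.8%) had a difference over 0.5, against 16.3% of all probes, and 59 (10.7%) one under −0.5, against 17% of all probes.

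The difference depended on the distance from the end. In the outer 2 kb, which 21 ends supplied, the median level was −0.80 in R-1h+BPS and −0.87 in R-1h-BPS, with a median difference of −0.17 over 98 probes. Taken over the 21 ends, the medians were −1.06 and −0.90, and 7 ends were higher with BPS. From 2 to 4 kb the levels were −0.10 and −0.71 and the median difference was 0.57. It was 0.51 from 4 to 6 kb, 0.41 from 6 to 8 kb (0.27 as a median over the 23 ends there) and 0.47 from 8 to 10 kb. Without BPS the level climbed in small steps towards the interior, through −0.57 and −0.36 to −0.33 at 8 to 10 kb. With BPS it made 1 large step near 2 kb and then stayed between −0.10 and 0.14. Just past the boundary of the windows, from 10 to 12 kb, the levels were 0.22 and −0.25 and the median difference was 0.32. Leaving out any 1 end kept the median difference of the outer 2 kb between −0.27 and −0.12, and that of 2 to 4 kb between 0.51 and 0.63. The median difference of the outer 2 kb changes with how left ends are measured: with distances counted from the first probe of each chromosome it was 0.029. That count adds left probes as far in as 19.6 kb from coordinate 0. It leaves the right ends as they were, and 6 of the 21 ends are left ones.

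**Figure D1:**
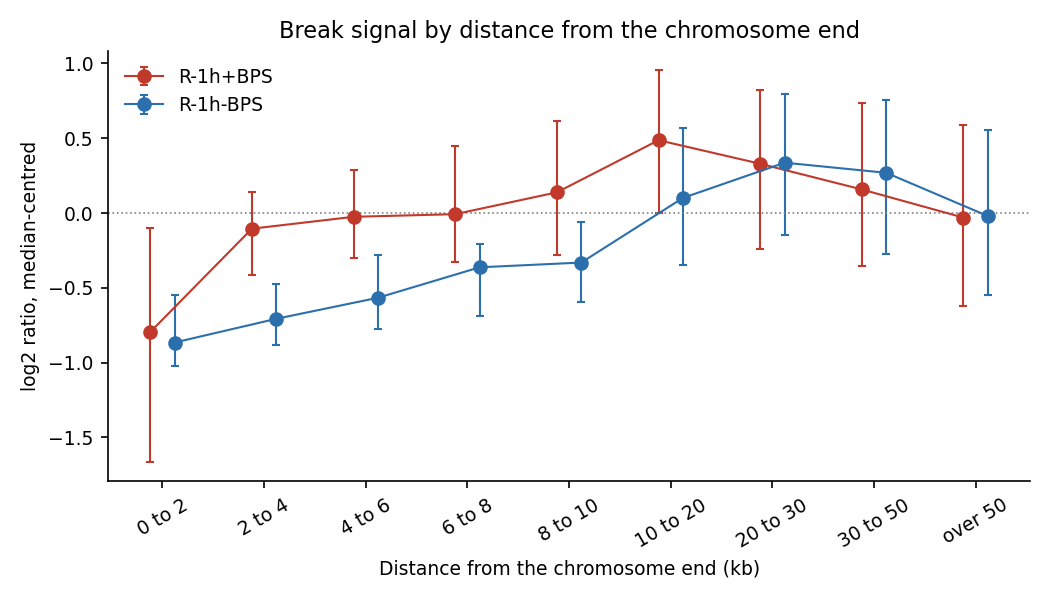
Median level (log2 ratio, each array centred on its genome median) of the probes in bins of distance from the chromosome end (kb), for R-1h+BPS (red) and R-1h-BPS (blue), chromosomes II to XVI. Bars span the quartiles over probes. Over pooled probes the medians are close in the outer 2 kb (−0.80 and −0.87), though the lower quartiles there are −1.66 and −1.02. The medians stand apart from 2 to 20 kb and meet again at 20 to 30 kb (0.33 and 0.34).

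As a median over ends, the higher level with BPS reached into the next 10 kb but not beyond it. Over the 24 ends with at least 3 probes in each of 3 consecutive belts, the median difference was 0.31 in the outer 10 kb, 0.20 from 10 to 20 kb and −0.10 from 20 to 30 kb. Ends higher with BPS numbered 20, 22 and 7 of the 24 in these belts. The sides differed: from 10 to 20 kb left ends ranged from 0.21 (XIII) to 0.87 (XIV), and right ends from −0.14 (XII) to 0.63 (III). The 7 ends higher from 20 to 30 kb were VI, VII, VIII, XI, XIV and XV left (0.03 to 0.35) and XI right (0.09). The left ends of II, III, V and XIII were lower there (−0.33 to −0.03), as were all other right ends. The level of the outer 10 kb, on the other hand, was below that of the 10 to 20 kb belt at 23 of the 24 ends in R-1h+BPS and at all 24 in R-1h-BPS. Median levels over these ends were −0.27 and −0.59 in the outer 10 kb, against 0.48 and 0.17 from 10 to 20 kb.

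At the outermost probe most ends had the opposite sign of difference. At the right ends the outermost probe ranged from −2.37 to 0.71, with a median of −1.85, in R-1h+BPS, and from −1.29 to 0.22, with a median of −0.86, in R-1h-BPS. At 12 of the 15 right ends it was below −1.5 with BPS, a level none had without, and at 12 of the 15 it was lower with BPS, where 52.2% of all probes were lower. Over all 27 ends with a probe the outermost one was lower with BPS at 20, with a median difference of −0.87, and the median deposited ratio there was 0.340 in R-1h+BPS and 0.614 in R-1h-BPS. The outermost probes of VII left (−2.43 against −1.56), V right (−2.37 against −0.86), XII right (−2.34 against −1.04) and XI right (−2.27 against −0.72) were among the lowest.

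Very low levels, under −1.5, were found mostly on the array with BPS. There were 54 such probes (9.82%) at 23 ends in R-1h+BPS, against 3.09% of all probes, and 2 (0.364%) in R-1h-BPS, against 1.04% of all probes. Of the 54, 32 lay within 2 kb of the end as counted here. At left ends with a Y′ gene they lay deeper: at 5.83 and 6.57 kb on II, at 6.31 and 6.53 kb on V, at 4.21, 5.10 and 5.88 kb on VI, at 4.92 and 5.85 kb on VIII, at 5.82 kb on XII and at 6.87 and 7.05 kb on XIV. On II, XII and XIV no probe lay nearer the end than these, so their depth there follows from where the probes were placed. On V, VI and VIII 1 probe lay nearer the end, at 0.29, −0.36 and −0.43 with BPS. The low probes on II, V, VI and XIV lay outward of the first gene inward of the Y′ genes. That gene is PAU9 on II, YEL073C on V, COS4 on VI and COS1 on XIV.

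Probes were therefore also divided at the outermost gene of each end, or at the first gene inward of the Y′ genes where there are any, a division made after these values were seen. At VI left 2 genes outside the Y′ family lie further out than the Y′ genes and all probes, so its probes are outward of COS4 but not of every such gene. The same holds for the outside probes of V right and XII left, each with 1 such gene further out than all probes. Outside the dividing gene lay 72 probes of 21 ends, with median levels of −1.59 in R-1h+BPS and −0.98 in R-1h-BPS and a median difference of −0.55. Inside it lay 478 probes, with medians of −0.01 and −0.49 and a median difference of 0.48. The difference was positive at 18 of the 72 outside probes (25%) and at 390 of the 478 inside probes (81.6%). Of the 54 probes under −1.5 with BPS, 41 were outside. Of the 15 probes with a difference under −1, 14 were outside, and of the 60 with one over 1, 59 were inside. At all 13 ends with at least 2 probes on each side, the outside mean was lower than the inside mean on both arrays and in the difference. The mean difference was below 0 outside at 12 of these 13 ends, the exception being XVI right at 0.01, and above 0 inside at 12, the exception being XII right at −0.12. The size outside depended on scale, as quantile normalization gave −0.26 there.

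**Figure D2:**
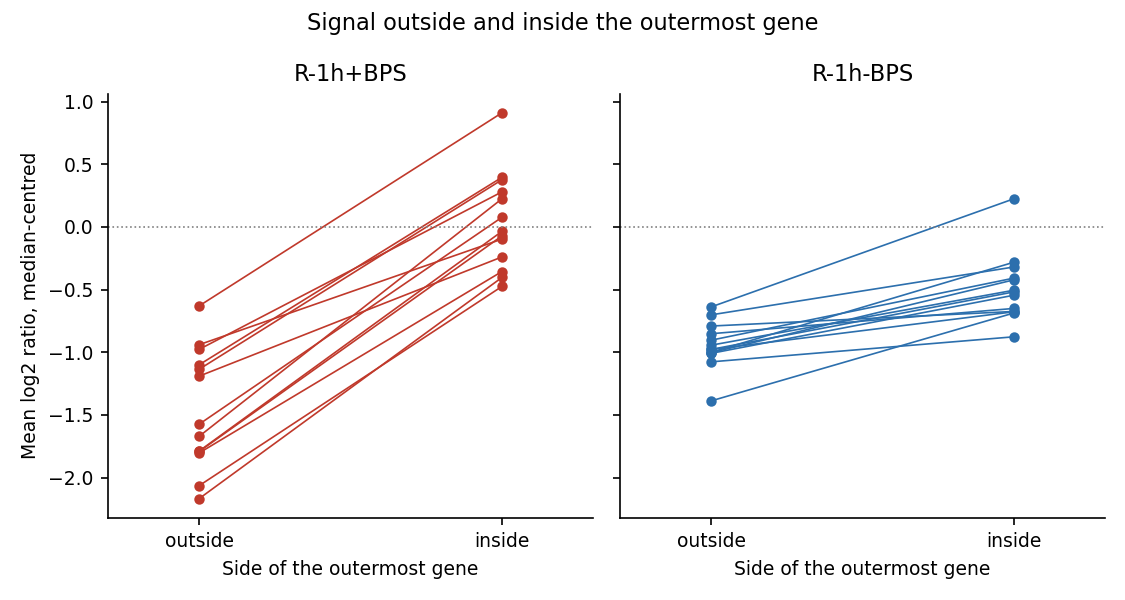
Mean level (log2 ratio, median-centred) of the probes outside and inside the outermost gene that is not in the Y′ family, for the 13 chromosome ends with at least 2 probes on each side; each line is 1 end, R-1h+BPS on the left and R-1h-BPS on the right. Every line climbs inward on both arrays, and the outside means reach −2.17 with BPS and −1.39 without.

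Seen end by end, the mean level of the 25 ends with at least 3 probes had a median of −0.29 in R-1h+BPS and −0.62 in R-1h-BPS, with an SD over ends of 0.58 and 0.34. The median difference over ends was 0.31, against −0.04 over 1134 windows of 10 kb in the rest of these chromosomes. Means above the genome median numbered 6 with BPS and 3 without, where 52.2% and 52.1% of the windows were above it. The arrays lay on opposite sides of that median at 5 ends: 4 were above it on the BPS array only, against 6.44% of the windows, and 1 on the other array only, against 6.35%. Differences were positive at 20 of the 25 ends (80%), where 44% of the windows had one. They exceeded 0.5 at 7 ends, against 6.44% of the windows, and were under −0.5 at 1 end, against 1.5% of the windows. Relative to the median of its own chromosome, an end was lower at 20 of the 25 in R-1h+BPS and at 23 in R-1h-BPS. Of the 10 chromosomes with both ends measured, 7 had both ends higher with BPS and none had both lower. Shares of other windows to set beside these last counts are not given here.

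**Figure D3:**
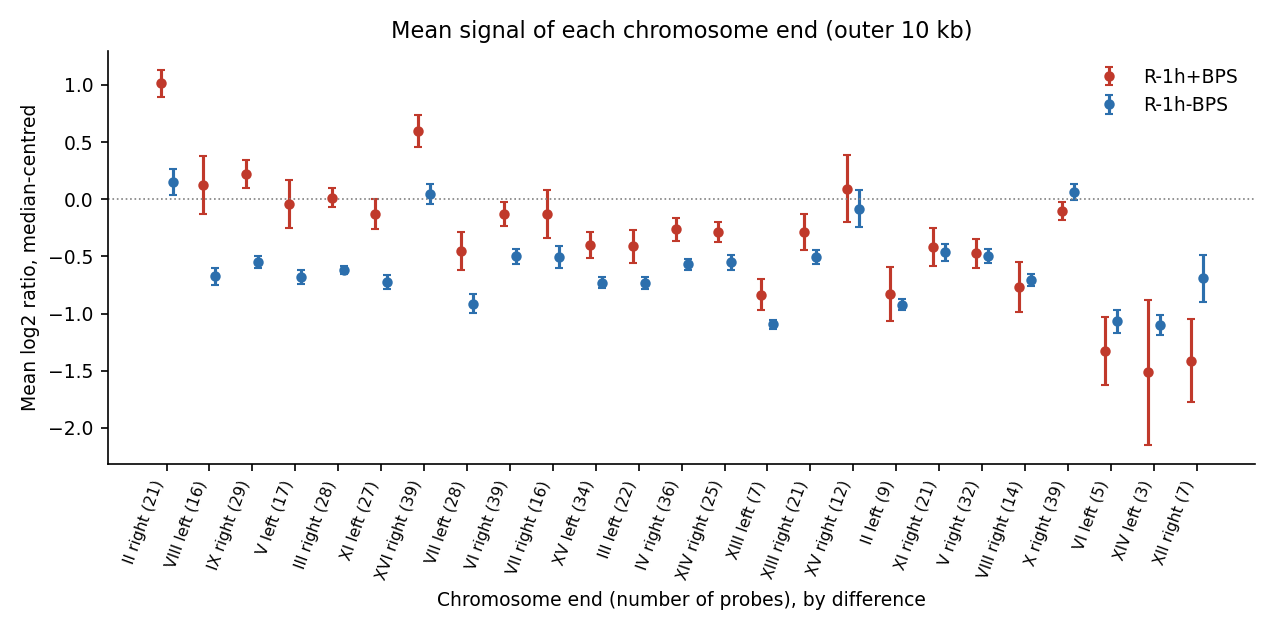
Mean level of the outer 10 kb of each of the 25 chromosome ends with at least 3 probes (log2 ratio, median-centred), in order of the difference; the number of probes is in brackets, R-1h+BPS is red and R-1h-BPS is blue, and bars are the SE over probes. The red point is above the blue at 20 ends and below it at the 5 ends on the right of the plot.

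The right end of II had the highest mean of all ends on both arrays and the largest positive difference. It stood at 1.01 ± 0.12 in R-1h+BPS and 0.15 ± 0.11 in R-1h-BPS (SE, 21 probes), a difference of 0.86 ± 0.10 or 1.82-fold, and 20 of its 21 probes were higher with BPS. Its probes carry the maltose genes MAL31 and MAL33, and the highest of them reached 1.87 with BPS at 6.19 kb, against 0.12 without. The left end of VIII came next, at 0.12 ± 0.25 and −0.68 ± 0.07 (16 probes), a difference of 0.80 ± 0.20. Its profile with BPS was steep, from −1.57 at 5.85 kb to 1.40 at 9.41 kb, while without BPS those probes had −1.06 and −0.42.

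The right end of IX, with YPS6, a gene for an aspartyl protease of the cell wall, stood at 0.22 ± 0.13 in R-1h+BPS and −0.55 ± 0.05 in R-1h-BPS, with a difference of 0.77 ± 0.09 over 29 probes. All but 2 of those probes were higher with BPS. The left end of V, with YEL073C, differed by 0.64 ± 0.16 (−0.04 and −0.68, 17 probes), and the right end of III, with the drug resistance regulator RDS1, by 0.63 ± 0.08 (0.01 and −0.62, 28 probes). At the right end of III 27 of the 28 probes were higher with BPS, the exception being the outermost one. The right end of XVI was the second highest with BPS, at 0.60 ± 0.14 against 0.05 ± 0.09 over 39 probes. It carries SGE1, a gene for a multidrug exporter, and the ARR genes of arsenic resistance.

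Only 2 ends with 10 or more probes had a negative mean difference. The right end of X stood at −0.10 ± 0.08 in R-1h+BPS and 0.06 ± 0.07 in R-1h-BPS, a difference of −0.16 ± 0.05 in which 27 of 39 probes were lower with BPS. This is the window with the most annotated genes between it and the chromosome's end. It was the second highest end without BPS, and its level was close to the genome median on both arrays. The right end of VIII stood at −0.77 ± 0.22 and −0.71 ± 0.05 (14 probes), with 7 probes higher and 7 lower. Its gene with most probes, IMD2, had −0.68 and −0.69 over 3 probes, a difference of 0.01 ± 0.28. The other negative mean differences came from ends with few probes: VI left at −0.26 ± 0.24 (5 probes), XIV left at −0.41 ± 0.59 (3 probes) and XII right at −0.72 ± 0.28 (7 probes). These 3 ends were also the lowest with BPS, at −1.33, −1.51 and −1.41, against −1.07, −1.10 and −0.69 without. Most of their probes lie outward of the dividing gene, all 5 at VI left, 2 of 3 at XIV left and 4 of 7 at XII right. XIII left, with 7 probes, was low on both arrays (−0.83 and −1.10).

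**Figure D4:**
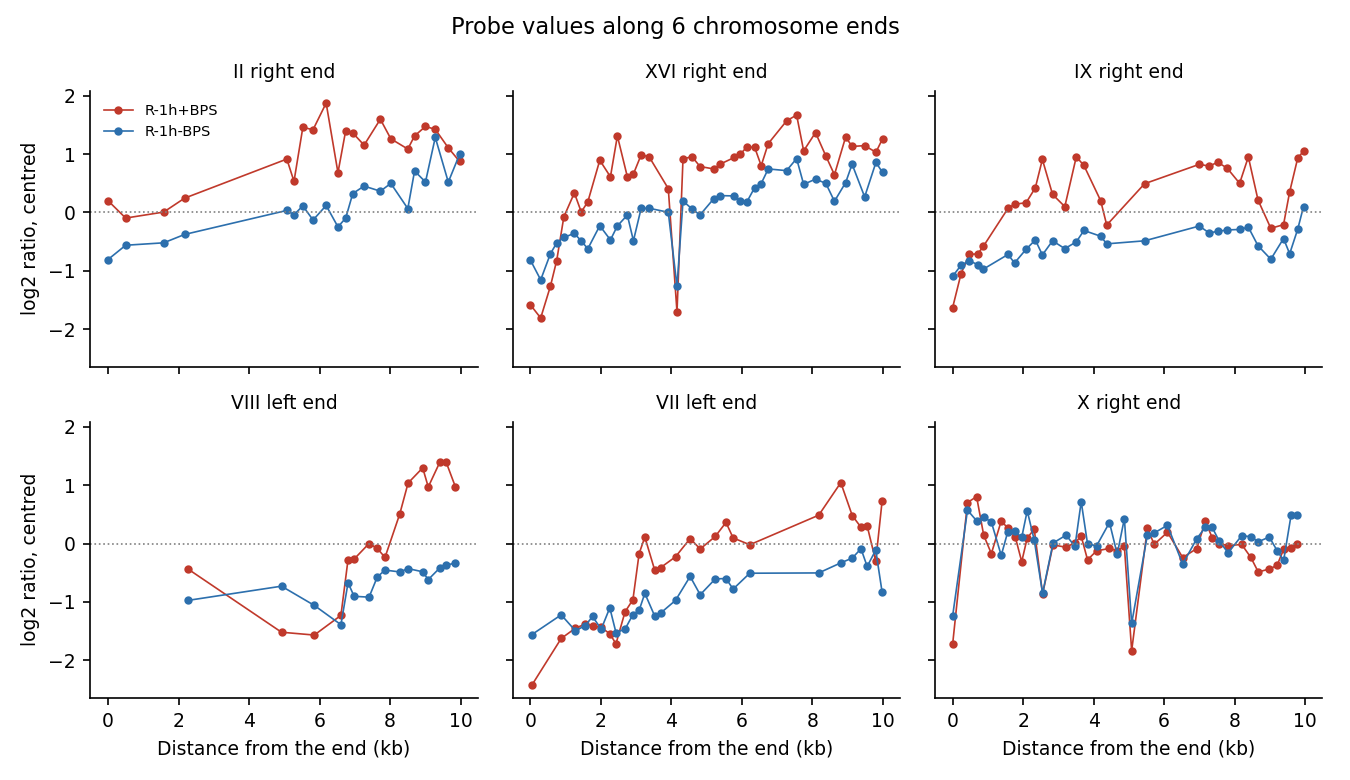
Level of every probe (log2 ratio, median-centred) against the distance from the end (kb) at 6 chromosome ends, R-1h+BPS in red and R-1h-BPS in blue; lines join neighbouring probes, also across gaps. The red line is above the blue at 20 of 21 probes at II right, 34 of 39 at XVI right, 27 of 29 at IX right, 14 of 16 at VIII left and 22 of 28 at VII left, and at 12 of 39 at X right.

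The difference overlapped widely between ends with and without Y′ genes. The 13 ends with them had a median difference of 0.17 and 9 were higher with BPS, against 0.35 and 11 of 12 among the ends without. Among ends with at least 10 probes the difference between these medians was −0.0145, and over single probes they were 0.41 and 0.42. Left and right ends had median differences of 0.33 and 0.26, with 8 of 10 and 12 of 15 higher with BPS. Over single probes the left and right medians were 0.21 and 0.41 in the outer 5 kb, and 0.57 and 0.38 from 5 to 10 kb. Median levels were −0.43 and −0.82 at left ends and −0.13 and −0.50 at right ends, on the arrays with and without BPS. The greater distance of many right windows from the true end was not separated from this.

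Within the windows, 63 annotated genes held a probe, 53 of them with a higher mean level with BPS (84.1%), against 47% of 5788 genes with a probe. Of the 31 genes with at least 3 probes, 27 were higher with BPS, against 47.2% of 4340 such genes. Their median difference was 0.48, against −0.03. A difference over 1 was found for 4 of the 31, against 2.1%, and one over 0.5 for 15, against 9.61%. None was under −0.5, against 6.77%. Inward of the dividing gene the median difference was 0.57 for 182 probes in genes and 0.43 for 296 probes between genes. Gene probes had the higher mean at 10 of the 19 ends with at least 3 probes of each kind, so no common direction was seen.

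The largest difference of a gene was at ARN2 on VIII left, which encodes a transporter of iron-bearing siderophores. Its 6 probes in the window averaged 1.18 ± 0.08 in R-1h+BPS and −0.44 ± 0.04 in R-1h-BPS, a difference of 1.62 ± 0.08 or 3.07-fold, and all 6 were higher with BPS. With the probe that lies past 10 kb the difference was 1.66 over 7 probes. MAL31, the maltose permease gene on II right, had 1.37 ± 0.16 and 0.01 ± 0.09, a difference of 1.35 ± 0.13 over 6 probes. ARR3, which encodes an exporter of arsenite, differed by 1.10 ± 0.18 over 4 probes on XVI right (0.86 and −0.24). YPS6 differed by 1.05 ± 0.07 over 5 probes (0.75 and −0.30).

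All 8 probes in RDS1 were higher with BPS, with means of 0.16 and −0.76 and a difference of 0.92 ± 0.08. FRE2, a ferric reductase gene on XI left, had 0.66 and −0.23 over the 4 probes in the window, a difference of 0.89 ± 0.12. Over the 8 probes of the whole reading frame it was 0.80. AAD3, a putative aryl-alcohol dehydrogenase gene on III right, differed by 0.81 ± 0.11 (0.18 and −0.64). COS12 on VII left differed by 0.75 ± 0.13, YCL074W on III left by 0.72 ± 0.10 and MAL33, the maltose activator gene beside MAL31, by 0.70 ± 0.16. COS12 stayed below the genome median on both arrays (−0.38 and −1.13), and MAL33 was above it on both (1.31 and 0.62).

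Negative differences among the 31 genes were found at 4, and 3 of them are on X right. PGU1, which encodes a secreted pectin-degrading enzyme, had −0.52 and −0.19, a difference of −0.33 ± 0.13 over 4 probes. YJR154W had 0.11 and 0.17, and DAL5, the allantoate permease gene, had 0.06 and 0.11. YOR389W on XV right averaged −0.60 and −0.54 with a wide scatter (−0.06 ± 0.53, 4 probes), because 2 of its probes stood near −2 with BPS and the other two above 0.5.

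**Figure D5:**
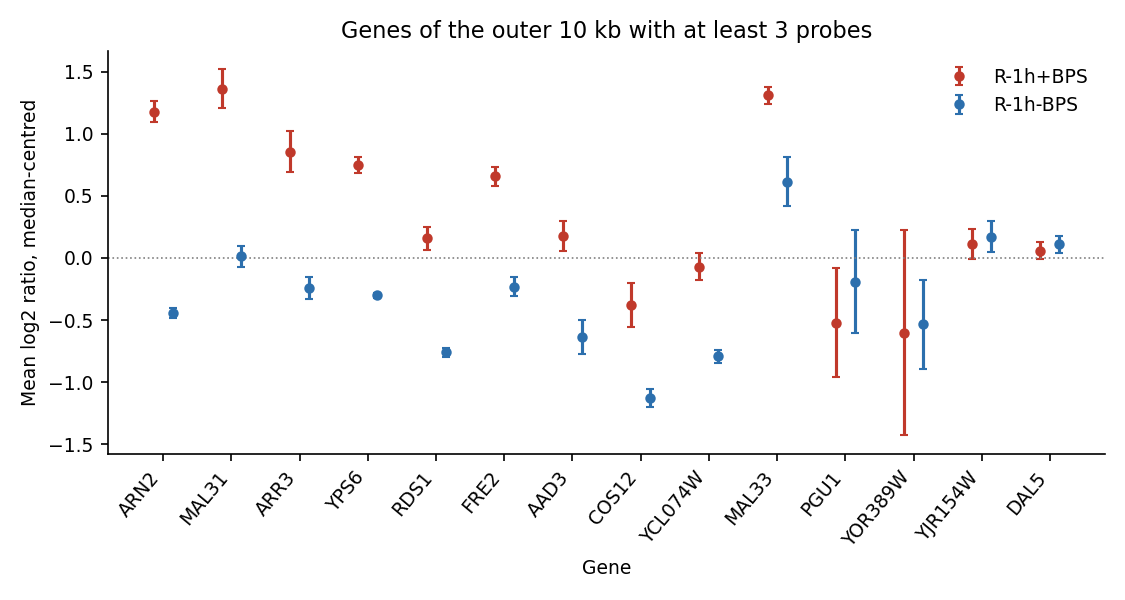
Mean level (log2 ratio, median-centred) of the named genes with at least 3 probes in the outer 10 kb, R-1h+BPS in red and R-1h-BPS in blue; bars are the SE over probes. The first 10 genes have the largest positive differences, from 1.62 at ARN2 to 0.70 at MAL33, and the last 4 are the genes with a negative difference, from −0.33 at PGU1 to −0.05 at DAL5.

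Few members of the gene families listed for chromosome ends held a probe in the windows, and among all 63 genes there 84.1% were higher with BPS, the share to set beside each count per family. Of 33 Y′ genes 2 held a probe, YEL077C on V left (0.29 and −0.87) and YHL050C on VIII left (−0.43 and −0.97), each with 1 probe and higher with BPS. The 6 COS genes in the windows, whose products act in sorting of membrane proteins, were all higher with BPS, by 0.17 at COS7 to 0.76 at COS1, and all lay below the genome median on both arrays: their median level was −0.32 in R-1h+BPS and −0.97 in R-1h-BPS. COS1, COS6 and COS7 rest on 1 probe each. The 3 MAL genes were all higher with BPS and had a median level of 1.31 in R-1h+BPS, the highest of the families there, and 0.01 in R-1h-BPS, with MAL31 at one end of the range and MAL11 (0.52 ± 0.13, 5 probes) at the other.

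PAU24 and PAU15, of the cell wall seripauperins, differed by 0.47 and 0.32 with 1 probe each. AAD3 and AAD10 went opposite ways, with AAD10 at −0.18 over 2 probes on X right. ERR1, an enolase-related gene, differed by 0.49 with 1 probe. Of the genes for iron uptake, ARN2, FRE2 and FET4, a transporter of ferrous iron, reached into the windows and all were higher with BPS, FET4 by 0.27 over 2 probes. These values state break signal at the genes, not their expression. No gene of the HXT, FLO, THI and SNZ or VTH families held a probe in the windows.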

How the data were processed

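Break-chip arrays of 1 R-1h+BPS and 1 R-1h-BPS sample were used, each hybridised with Cy3-labelled recovery DNA and Cy5-labelled G1 DNA, per the labels. Scans were quantified in Agilent Feature Extraction (9.5.1 is the version in the submitters' processing notes). For each array the deposited values are linear ratios, 1 a probe, and the authors describe them as normalized. The method of normalization, the genome build and the numerator are not given in the sources used here, and the array medians were 1.23 and 1.21. Each ratio was put on a log2 scale and the genome-wide median of its array subtracted, with no filter on probes. No scanner intensities were used, and 1 array per group limits the precision.

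An end was described by the mean of its probes where it had at least 3. Other 10 kb windows with at least 3 probes gave the background. Gene names came from RefSeq's R64 table, whose coordinates are not reported. As a check of the alignment, 34 long frames of transposons held 2 probes in place and 37 when moved by 500 bp either way. Genes were named by a fixed rule: up to 10 of the largest differences in each direction among genes with at least 3 probes (4 were negative), the extremes of each family, and the main gene of each named end. PAU9, COS4 and COS1 as markers of the low zone, ARR1 and the single low probes were chosen after their values were seen. Members and lists were chosen with earlier results of these data known. Python 3.11.15, numpy 2.4.6 and pandas 2.3.3 were used.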

Additional observations from a re-analysis of the deposited data

How the results depend on the processing

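No paired analysis was possible because each group has 1 array, and no replicate could be left out. Of 175 recomputed values, 138 moved by less than the SE over ends or, for counts, by less than 1.5 times. Without centring the median levels over ends were 0.0080 with BPS and −0.34 without. Division by the robust SD of each array puts values in units of that SD, not log2. In those units the differences were 0.53 over probes, 0.41 over ends, 0.58 from 2 to 10 kb and 0.59 inside the outermost gene. The level without BPS was then −0.76, and 104 probes had a difference over 1 such unit. Quantile normalization gave 0.40 over ends, −0.26 outside the outermost gene, 0 ends under −0.5 and 6 probes under −1. Medians in place of means gave 2 ends under −0.5. In the outer 5 kb the levels were −0.60 and −0.73, 13 of 18 ends were higher with BPS, 3 were over 0.5 and 0 under −0.5, and 17 and 9 probes passed 1 and −1. In the outer 20 kb the levels were 0.27 and −0.0918, the difference over probes 0.33, 140 probes were over 1 and 0 ends under −0.5. With left ends counted from the first probe the levels were −0.13 and −0.55 and the outer 2 kb differed by 0.0286. Ends with at least 10 probes gave −0.13 and −0.55, 0 ends under −0.5 and −0.0145 between ends with and without Y′ genes. Chromosome I would add 1 end under −0.5, for 2 in all, and bring the probes under −1 to 40. Without the 2 kb nearest the end, chosen after seeing the data like the division at the outermost gene and the removal of X right, the level with BPS was −0.0713, the difference over ends 0.43 and 6 probes were under −1. The cause of these shifts was not tested.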

Other observations

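The ends of chromosome I, which are not among the members, went the other way. The outer 10 kb of its left end had −1.80 ± 0.11 in R-1h+BPS and −0.70 ± 0.12 in R-1h-BPS (SE, 39 probes), a difference of −1.10 ± 0.17, and 32 of the 39 probes were lower with BPS. Its right end had −1.06 ± 0.29 and −0.68 ± 0.12 (13 probes), a difference of −0.38 ± 0.26.

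A few single probes inside the windows were low on both arrays between neighbours near or above the genome median. At X right the probe at 5.08 kb, in PGU1, stood at −1.84 in R-1h+BPS and −1.37 in R-1h-BPS, while the probe at 5.52 kb had 0.26 and 0.14. At XVI right the probe at 4.16 kb, in ARR1, stood at −1.71 and −1.27, while that at 4.33 kb had 0.92 and 0.19. At V right the probe at 6.12 kb stood at −2.02 and −1.44, and that at 6.56 kb at 0.30 and −0.34. Such probes lower the means of PGU1 and of X right. Sequences of the probes were not used here.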
